A study of Mus musculus with 2 samples.

Results

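The 10 chemokine genes Ccl2, Ccl7, Ccl11, Ccl3, Ccl4, Ccl6, Ccl9, Cxcl1, Cxcl2 and Cxcl10 were followed through 2 single-cell libraries of mouse muscle stem cells, also called satellite cells. They were taken by symbol from the 32285 counted features, and all 10 were found in both libraries. Both groups carried the alleles Pax7 CreERT2/+ and Rosa26 mTmG/+ and were 8 weeks of age. In such mice an inducible Cre recombinase under control of the Pax7 gene switches a membrane-bound red fluorescent protein to a green one. Cells came from the tibialis anterior muscle, were released with dispase and collagenase, pooled over mice and sorted by fluorescence. The QSC library (quiescent satellite cells) came from uninjured muscle and the ASC library (activated satellite cells) from muscle 1.5 days after injection of cardiotoxin, a toxin that destroys muscle fibers. With 1 library per group, group and library cannot be told apart, no difference below has a replicate check, and every interval covers counting error only.

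Chemokines are small secreted proteins that guide leukocytes along a gradient through G protein-coupled receptors. CCL2 and CCL7 act on CCR2 of monocytes, CCL11 on CCR3 of eosinophils and CCL3 on CCR1, while CXCL1 and CXCL2 recruit neutrophils through CXCR2 and CXCL10 recruits activated T cells through CXCR3. Injured muscle is entered by neutrophils first and by monocytes soon after, and resident macrophages, fibroblasts and satellite cells can all be sources of chemokines.

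Most of the genes lie in tight groups. On chromosome 11 (GRCm38, GENCODE M21 annotation, 1-based), Ccl2 (82035571 to 82037453), Ccl7 (82045712 to 82047525) and Ccl11 (82057823 to 82062955) lie on the plus strand within 27.4 kb. At a distance of 1510 kb follow Ccl9 (83572919 to 83578636), Ccl6 (83587882 to 83593087) and Ccl3 (83647844 to 83649355) on the minus strand and Ccl4 (83662584 to 83664683) on the plus strand, together within 91.8 kb. On chromosome 5, Cxcl1 (90891241 to 90893115) and Cxcl2 (90903871 to 90905938) share 14.7 kb of the plus strand, and Cxcl10 (92346638 to 92348889, minus strand) lies 1441 kb from them. Ccl2, Ccl6 and Cxcl10 each overlap a gene on the opposite strand (Gm17268, E230016K23Rik and Art3), and whether reads were assigned by strand is not given in the sources used here, so these 3 counts are less certain.

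After filtering, 516 QSC barcodes with 1162091 unique molecular identifiers (UMIs, each marking 1 captured transcript) and 1468 ASC barcodes with 8895815 UMIs remained, with medians of 2155 and 3502 UMIs. Of the kept barcode sequences 2 occurred in both libraries. The label of satellite cell was borne out in part. Pax7, which defines satellite cells, had 160 CPM (UMIs scaled to a library total of 1e6) over all QSC barcodes and 18.4 CPM over all ASC barcodes, and Myog, a gene of committed muscle cells, had 29 and 5449 UMIs. Clustering without any chemokine gene gave 12 clusters. Cluster 3, called quiescent satellite-like, held 236 QSC and 8 ASC barcodes, and its 10 leading genes included the satellite marker Chodl and the fibroblast marker Ogn. Cluster 2 (18 QSC and 238 ASC barcodes, led by Bgn, C1qtnf3 and Iigp1) and cluster 4 (73 and 148, led by Rrm2) could not be named, although Myod1, the gene of an activation factor, stood at 448 CPM and 369 CPM in their ASC barcodes. The 10 leading genes of cluster 2 included Tagln, a listed marker of smooth muscle and pericytes. Cluster 7, called macrophage/monocyte-like, held 25 QSC and 90 ASC barcodes, cluster 10, called neutrophil-like, 24 ASC barcodes and no QSC barcode, and cluster 11, called fibroblast-like, 17 QSC barcodes and 1 ASC barcode. Of the rest, fibre barcodes took at least 5% of their UMIs from 10 muscle fibre genes (104 QSC and 935 ASC barcodes), and the others are called fibre-poor (370 and 418). Of all ASC barcodes, 29 lay near this limit, at 4 to 6%.

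The macrophage/monocyte-like cluster was mixed and differed in make-up between the libraries. In its 25 QSC barcodes, macrophage or monocyte markers led in 8, dendritic cell markers in 8 and endothelial markers in 9. In the 90 ASC barcodes they led in 70, 7 and 5, and markers of T or NK cells in 7. Within the barcodes led by macrophage or monocyte markers, C1qa, a gene of tissue macrophages, reached 4035 CPM in resting and 149 CPM in injured muscle, whereas Ly6c2, a gene of inflammatory monocytes, had 0 UMIs in the former and 3666 CPM in the latter. The QSC barcodes led by dendritic markers held C1qa too, at 4688 CPM. Lyz2, a listed macrophage or monocyte marker, stood at 8606 CPM in them. In the QSC barcodes led by macrophage or monocyte markers it stood at 8363 CPM. In the neutrophil-like cluster, S100a8 and S100a9, which encode the main cytosolic proteins of neutrophils, stood at 16503 and 12676 CPM. Both clusters lie outside the cell type that the sort was meant to collect.

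The 10 genes together took 1559 UMIs (0.134%) of the QSC library and 15554 UMIs (0.175%) of the ASC library. At least 1 of their UMIs was found in 281 QSC barcodes (54.5%) and in 729 ASC barcodes (49.7%). Over all kept barcodes, Ccl3, Ccl6, Ccl9, Cxcl2 and Cxcl10 were more than 2-fold higher in the ASC library with an interval off equality. Ccl11 and Cxcl1 were more than 2-fold lower, and Ccl2, Ccl7 and Ccl4 passed neither limit. Thus 5 of 10 were higher and 2 of 10 lower, where 12.4% and 21.3% of the 11189 genes with at least 20 UMIs were. The share of members lower was near that of all genes. The median gene stood at -0.24 on the log2 scale of ASC over QSC (5730 genes with at least 20 UMIs in each library), so log2 ratios relative to it are higher by that amount, from -3.18 for Ccl11 to 4.61 for Cxcl10. In such sums over a library, fewer cells of a type and less RNA per cell cannot be told apart. The values of each gene follow by what it attracts.

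**Figure D1:**
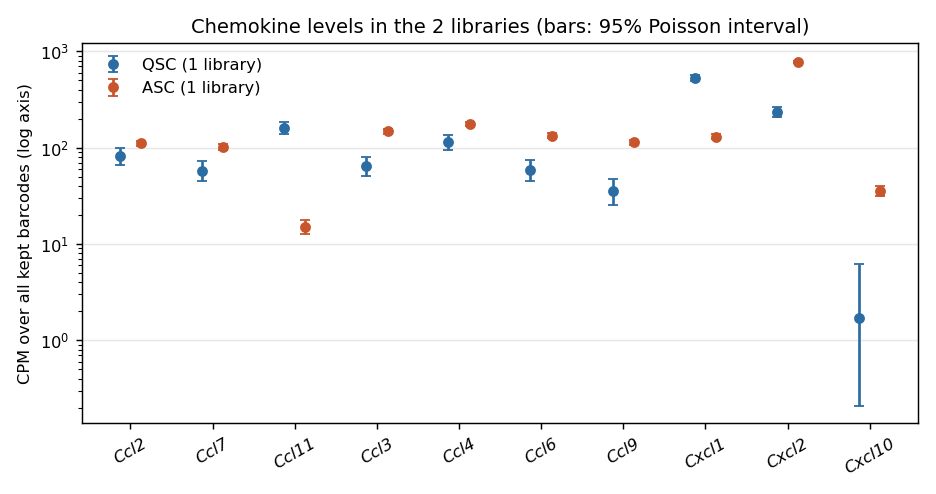
Level of each of the 10 chemokine genes in the QSC and ASC libraries, in CPM over all kept barcodes on a log axis, with exact Poisson 95% intervals. Ccl11 (161 against 15.1 CPM) and Cxcl1 (530 against 130 CPM) lie higher in the QSC library and the other 8 points higher in the ASC library, with Cxcl10 at 1.72 CPM in the QSC library resting on 2 UMIs.

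Ccl2 and Ccl7, both monocyte attractants, were present in resting and injured muscle. Ccl2 had 95 QSC UMIs, or 81.7 CPM (66.1 to 99.9), and 989 ASC UMIs, or 111 CPM (104 to 118). Its log2 ratio was 0.44 (0.14 to 0.76). Ccl7 had 67 QSC UMIs, or 57.7 CPM (44.7 to 73.2), and 907 ASC UMIs, or 102 CPM (95.4 to 109), a log2 ratio of 0.82 (0.46 to 1.20). What the sums hide is a shift between kinds of barcodes. In the QSC library 33.7% of the Ccl2 UMIs and 41.8% of the Ccl7 UMIs lay in macrophage/monocyte-like barcodes, and fibre-poor barcodes held 61.1% and 55.2%. In the ASC library macrophage/monocyte-like barcodes held 75.0% and 63.9%, and fibre-poor barcodes 22.8% and 32.4%.

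Within macrophage/monocyte-like barcodes the level of Ccl2 was 732 CPM (501 to 1034) before and 1328 CPM (1234 to 1427) after injury, and the log2 ratio 0.86 (0.35 to 1.42). With only the barcodes led by macrophage or monocyte markers this ratio was 0.10 (-0.46 to 0.72). In fibre-poor barcodes Ccl2 went the other way, with 68.5 and 42.5 CPM and the log2 ratio at -0.69 (-1.11 to -0.25). These barcodes lay mostly in cluster 3 before injury (236 of 370) and in clusters 2 and 4 after it (234 and 103 of 418). Within cluster 2 Ccl2 had 20.2 and 80.2 CPM on 1 QSC UMI, and within cluster 4 it had 23.1 and 25.6 CPM on 3, so no drop was seen inside either, and both intervals held 0. The ratio of Ccl7 in fibre-poor barcodes was 0.35 (-0.15 to 0.88). In resting muscle the quiescent satellite-like cluster held 49 Ccl2 UMIs in 16 of 236 barcodes, with up to 9 UMIs in a barcode, and 31 Ccl7 UMIs in 18 barcodes, with up to 5. After injury cluster 2 held 143 Ccl2 UMIs in 38 of 238 barcodes and 213 Ccl7 UMIs in 39 barcodes. A minority of fibre-poor barcodes thus carried the transcripts in either library, and a single ASC barcode held as many as 43 Ccl2 UMIs.

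The same macrophage/monocyte-like ASC barcode held the most Ccl2 (69 UMIs) and the most Ccl7 (115 UMIs) among 12577 UMIs. Without the top barcode of each library the log2 ratio was 0.64 for Ccl2 and 0.79 for Ccl7, and without that of the ASC library alone it was 0.34 and 0.63. Over the 90 ASC barcodes of that cluster Ccl2 ranged from 0 to 69 UMIs with a median of 4.5 and was found in 58, and Ccl7 ranged from 0 to 115 with a median of 0 and was found in 40.

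Ccl11, the eosinophil attractant also known as eotaxin, was the gene with the lowest ratio. It had 187 QSC UMIs, or 161 CPM (139 to 186), and 134 ASC UMIs, or 15.1 CPM (12.6 to 17.8). Its log2 ratio was -3.42 (-3.75 to -3.09), which is 10.7-fold higher in the QSC library. No macrophage/monocyte-like or neutrophil-like barcode held a Ccl11 UMI, where 3 UMIs would have given 68.7 CPM in QSC and 5.37 CPM in ASC macrophage/monocyte-like barcodes and 65.2 CPM in neutrophil-like barcodes. Its level was highest in fibroblast-like barcodes of resting muscle, at 1327 CPM (1045 to 1660), where 16 of 17 barcodes held it with a median of 4 and at most 10 UMIs. That class held 40.6% of the QSC UMIs of Ccl11.

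The other 59.4% lay in fibre-poor barcodes, among them 83 UMIs in 34 barcodes of the quiescent satellite-like cluster, at 146 CPM (116 to 181). Dcn, a defining fibroblast gene, stood at 37.8 CPM in fibre-poor QSC barcodes against 10787 CPM in fibroblast-like ones. The QSC barcode with most Ccl11 (12 UMIs) lay in the quiescent satellite-like cluster and held 5 Myod1 UMIs and no Dcn or Pdgfra UMI. After injury nearly all Ccl11 lay in cluster 2, with 129 of 134 UMIs in 41 barcodes. Of these, 59 UMIs came from 1 barcode, which held 10 UMIs of the muscle gene Des, 1 of Pax7, 1 of Myod1 and none of Dcn or Pdgfra. Without the top barcode of each library the log2 ratio was -4.16. Fibroblast markers moved with the result, since Dcn had 567 and 10.6 CPM and Pdgfra 24 and 0 UMIs in the QSC and ASC libraries, and their part in the drop over all barcodes was not tested. Within fibre-poor barcodes, which leave out the fibroblast-like cluster, the Ccl11 log2 ratio was -2.39 (-2.77 to -2.02), with 131 against 24.9 CPM. Different clusters make up that class in the libraries, as given for Ccl2. Within its cluster 2 barcodes Ccl11 had 40.4 and 72.8 CPM, with only 2 QSC UMIs and the log2 ratio at 0.85 (-1.03 to 3.91), and within those of cluster 4 it had 108 and 1.18 CPM on 14 and 3 UMIs.

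Ccl3 and Ccl4, which attract monocytes, T cells and NK cells, were close to absent from fibre and fibre-poor barcodes. Ccl3 had 75 QSC UMIs, or 64.5 CPM (50.8 to 80.9), and 1312 ASC UMIs, or 147 CPM (140 to 156), a log2 ratio of 1.19 (0.86 to 1.55). Ccl4 had 133 QSC UMIs, or 114 CPM (95.8 to 136), and 1574 ASC UMIs, or 177 CPM (168 to 186), and its log2 ratio was 0.63 (0.37 to 0.89). Most of the QSC UMIs came from 1 barcode. It held 61 of the 75 Ccl3 UMIs and 99 of the 133 Ccl4 UMIs among 2730 UMIs, lay in the macrophage/monocyte-like cluster and was led by dendritic markers, with 84 UMIs of Cd74. The macrophage or monocyte markers Lyz2 and C1qa had 26 and 11 UMIs in this barcode. Without the top barcode of each library the log2 ratio was 3.51 (2.76 to 4.39) for Ccl3 and 2.48 (1.99 to 3.01) for Ccl4, so both would then have passed the 2-fold limit. With only barcodes of at least 1000 detected genes, which keep that barcode, both signs turned, to -0.61 and -0.91.

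After injury both genes were shared between the myeloid clusters. Macrophage/monocyte-like barcodes held 37.6% of the ASC UMIs of Ccl3 and 50.1% of those of Ccl4. Neutrophil-like barcodes, which took 0.517% of the UMIs of the library, held 54.5% and 44.0%. In them Ccl3 reached 15546 CPM (14427 to 16728) and was found in 23 of 24 barcodes, from 0 to 86 UMIs with a median of 25. Ccl4 reached 15046 CPM and was found in 18 of 24 barcodes, from 0 to 120 UMIs with a median of 23. In macrophage/monocyte-like ASC barcodes the levels were 882 CPM (806 to 963) for Ccl3 and 1410 CPM (1313 to 1512) for Ccl4. Levels in neutrophil-like barcodes thus exceeded those in macrophage/monocyte-like ones beyond the counting intervals for both genes.

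In macrophage/monocyte-like barcodes as a whole, the QSC barcode named above included, both genes were lower after injury, with a log2 ratio of -0.86 (-1.22 to -0.48) for Ccl3 and a ratio of 0.501 for Ccl4 (log2 interval -1.27 to -0.71). With only the barcodes led by macrophage or monocyte markers it was 1.31 (0.26 to 2.63) on 7 QSC UMIs for Ccl3 and 0.56 (-0.09 to 1.30) on 19 QSC UMIs for Ccl4. The sign of the ratio thus depended on which barcodes of that cluster were counted.

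Ccl6 and Ccl9, chemokines of myeloid cells that act on CCR1, lay mainly in macrophage/monocyte-like barcodes of both libraries. Ccl6 had 68 QSC UMIs, or 58.5 CPM (45.4 to 74.2), and 1181 ASC UMIs, or 133 CPM (125 to 141). Its log2 ratio was 1.18 (0.83 to 1.56). Ccl9 had 41 QSC UMIs, or 35.3 CPM (25.3 to 47.9), and 1017 ASC UMIs, or 114 CPM (107 to 122), a log2 ratio of 1.70 (1.25 to 2.18). Macrophage/monocyte-like barcodes held 86.8% of the QSC and 87.0% of the ASC UMIs of Ccl6, and 82.9% and 90.6% of those of Ccl9. Within that cluster Ccl6 stood at 1350 and 1839 CPM, a log2 ratio of 0.45 (0.07 to 0.85). Ccl9 stood there at 778 and 1648 CPM, a log2 ratio of 1.08 (0.59 to 1.62), and was the only 1 of the 10 genes past the 2-fold limit within the whole cluster. With only the barcodes led by macrophage or monocyte markers its ratio was 0.91 (0.24 to 1.67), within that limit, and Ccl3 was past it instead.

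Both genes were spread over many macrophage/monocyte-like barcodes of the ASC library. Ccl6 ranged from 0 to 109 UMIs with a median of 4 and was found in 71 of 90, and Ccl9 from 0 to 90 with a median of 6 in 68 of 90. The same barcode, with 340 UMIs of Lyz2, was the highest for both. In neutrophil-like barcodes the levels were lower, at 544 CPM (352 to 802) for Ccl6 and 217 CPM (104 to 400) for Ccl9. That order is the reverse of the one for Ccl3 and Ccl4, although Ccl6, Ccl9, Ccl3 and Ccl4 are neighbors on chromosome 11.

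Cxcl1 and Cxcl2, the neutrophil attractants, are neighbors on chromosome 5 and had ratios of opposite sign. Cxcl1 had 616 QSC UMIs, or 530 CPM (489 to 574), and 1157 ASC UMIs, or 130 CPM (123 to 138), a log2 ratio of -2.03 (-2.17 to -1.88), or 4.08-fold higher in resting muscle. Cxcl2 had 275 QSC UMIs, or 237 CPM (209 to 266), and 6967 ASC UMIs, or 783 CPM (765 to 802), a log2 ratio of 1.73 (1.55 to 1.91). Different kinds of barcodes lay behind these sums. Fibre-poor barcodes held 95.5% of the QSC and 68.0% of the ASC UMIs of Cxcl1, whereas myeloid clusters held 77.5% of the QSC and 92.6% of the ASC UMIs of Cxcl2.

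The upstream sequences of the pair are shown because the genes lie next to each other, share a motif and differ in which barcodes carried them. RefSeq entries (GRCm38.p6) exist for 6 of the 10 genes, and the 250 bases before each start were searched on both strands for the NF-kB consensus, the interferon-stimulated response element (GAAANNGAAA) and the AP-1 motif (TGANTCA). Capitals mark the NF-kB match, where overlapping matches on both strands count as 1 place. It lies 71 to 61 bases before the start in Cxcl1 (chr5:90891115-90891240, plus strand) and 97 to 87 bases before it in Cxcl2 (chr5:90903769-90903870, plus strand).
Cxcl1: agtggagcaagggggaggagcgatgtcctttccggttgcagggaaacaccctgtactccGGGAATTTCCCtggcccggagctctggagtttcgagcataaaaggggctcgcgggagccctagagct
Cxcl2: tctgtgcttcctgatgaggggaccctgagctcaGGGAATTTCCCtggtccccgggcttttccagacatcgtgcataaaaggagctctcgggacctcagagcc
The longest run of letters common to both stretches has 14 bases and contains the match. Of the 32851 promoters searched, 7.25% hold an NF-kB match, against 4 of the 6 entries here (Ccl9, Cxcl1, Cxcl2 and Cxcl10). These are matches of letters, not sites shown to be bound.

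In resting muscle Cxcl1 was a transcript of the quiescent satellite-like cluster, with 471 UMIs, or 828 CPM (755 to 906). It was found in 120 of 236 barcodes, from 0 to 30 UMIs, with 48 barcodes at 3 UMIs or more. After thinning each barcode to 1200 UMIs, 35.2% (29.1 to 41.6) of these barcodes held it, against 3.33% of fibre barcodes. Before thinning, the median depth was 2396 UMIs in this cluster and 1635 UMIs in fibre barcodes. The fibre-poor QSC barcodes of cluster 4 had 223 CPM and those of cluster 2 had 908 CPM on 45 UMIs. In macrophage/monocyte-like QSC barcodes Cxcl1 stood at 298 CPM (158 to 509), below the quiescent satellite-like cluster, and in fibroblast-like ones at 175 CPM (83.7 to 321).

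After injury the level in fibre-poor barcodes was 149 CPM (138 to 159) against 695 CPM (640 to 753) in resting muscle, and the log2 ratio -2.22 (-2.38 to -2.07). Within the barcodes of cluster 2, the ratio was -2.12 (-2.57 to -1.64), with 908 and 208 CPM. In cluster 4 it was -0.56 (-1.10 to 0.04), with 223 and 152 CPM. The share of thinned fibre-poor barcodes with Cxcl1 was 30.1% in the QSC and 9.95% in the ASC library, against 0.707% of ASC fibre barcodes. The median depths of the ASC classes before thinning were 8401 and 2672 UMIs. In macrophage/monocyte-like barcodes Cxcl1 had 298 CPM before and 510 CPM (452 to 573) after injury. The log2 ratio there was 0.78 (-0.02 to 1.70) on 13 QSC UMIs, and its interval held 0. Neutrophil-like barcodes, found in the ASC library only, had 1218 CPM (920 to 1581), and 5 of 24 held all 56 UMIs.

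Early-response genes, such as Fos and Jun, respond within minutes to stress and to tissue digestion. Their share of UMIs and the level of Cxcl1 were both lower after injury in fibre-poor barcodes, but differed in order over the QSC clusters. The 18 early-response genes took 3.49% of the UMIs of fibre-poor QSC barcodes and 0.472% of those of fibre-poor ASC barcodes. In macrophage/monocyte-like barcodes they took 2.54% before and 1.10% after injury, where Cxcl1 stood at 298 and 510 CPM. In the QSC library the share was 3.56% in cluster 3 (828 CPM of Cxcl1), 3.47% in fibre-poor barcodes of cluster 4 (223 CPM), 2.61% in cluster 2 (908 CPM), 1.35% in fibroblast-like barcodes (175 CPM) and 0.168% in fibre barcodes (23.3 CPM). Within cluster 3, thinned barcodes with a Cxcl1 UMI had a median of 35 early-response UMIs and those without it 42. The part of early-response genes in the Cxcl1 difference was not tested. Of the 83 thinned barcodes of cluster 3 with Cxcl1, 2 also held Ccl2, 6 held Ccl7 and 7 held Ccl11.

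Cxcl2 was in the main a myeloid transcript. In neutrophil-like barcodes it reached 59705 CPM (57492 to 61981), with 2 to 334 UMIs in each of the 24 barcodes and a median of 123.5. In macrophage/monocyte-like barcodes the level was 4875 CPM (4242 to 5576) in the QSC and 6623 CPM (6412 to 6840) in the ASC library. The log2 ratio was 0.44 (0.24 to 0.65), and -0.21 (-0.44 to 0.02) with only the barcodes led by macrophage or monocyte markers. A single QSC barcode held 85 of the 275 UMIs, and without the top barcode of each library the ratio over all barcodes was 2.18. With at least 1000 detected genes per barcode it was 0.50 (0.30 to 0.70) and no longer past 2-fold. In fibre-poor barcodes the levels were 69.7 and 71.2 CPM, a log2 ratio of 0.03 (-0.37 to 0.45). Within fibre-poor barcodes of cluster 4 it was 2.30 (0.43 to 5.36), with 15.4 and 75.9 CPM, and in fibre barcodes 2.35 (0.47 to 5.41), with 9.32 and 47.5 CPM, both on 2 QSC UMIs. The difference over all barcodes was 3.31-fold, and the neutrophil-like cluster, with 39.4% of the ASC UMIs of Cxcl2, was found in the ASC library only. After thinning, 5.58% of fibre-poor ASC barcodes held Cxcl2 against 6.01% of fibre barcodes, so the share was no higher there. The unthinned level was above that of fibre barcodes (71.2, 64.2 to 78.8, against 47.5, 40.0 to 56.0 CPM).

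Cxcl10, the interferon-induced attractant of T cells, had 2 QSC UMIs, or 1.72 CPM (0.21 to 6.22), and 316 ASC UMIs, or 35.5 CPM (31.7 to 39.7). The log2 ratio was 4.37 (2.50 to 7.42), or 20.6-fold. Unlike the other genes with a higher ASC level, it lay mostly in fibre-poor barcodes, which held 82.6% of its ASC UMIs, while macrophage/monocyte-like barcodes held 16.1% and neutrophil-like ones none (3 UMIs there would be 65.2 CPM). Fibre-poor barcodes took 59.5% of all ASC UMIs and macrophage/monocyte-like ones 6.28%. The ASC level of Cxcl10 was higher in the latter, at 91.2 CPM (67.9 to 120) against 49.3 CPM (43.5 to 55.7). In fibre-poor barcodes it stood at 2.36 and 49.3 CPM, a log2 ratio of 4.38 (2.52 to 7.44), and was the only 1 of the 10 genes to be higher there by this limit.

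Few barcodes carried Cxcl10. Cluster 2 held 162 UMIs in 27 of 238 ASC barcodes, of which 55 came from 1 barcode with 16 UMIs of Myod1, and a single barcode of cluster 1 held 37. After thinning, 3.40% of fibre-poor ASC barcodes held it, against 0.118% of fibre barcodes. Ifit1, another interferon-induced gene and a leading gene of cluster 2, had 133 of its 192 ASC UMIs there. The promoter of Cxcl10 (chr5:92348890-92349139, minus strand, RefSeq, GRCm38.p6) is shown because it is the only 1 of the 6 entries with an interferon-stimulated response element match, 213 to 204 bases before the start. A match of this kind is in 2.98% of all promoters. Capitals mark in turn this match, the NF-kB matches at 159 to 150 and 104 to 94 bases and an AP-1 match at 74 to 68 bases.
Cxcl10: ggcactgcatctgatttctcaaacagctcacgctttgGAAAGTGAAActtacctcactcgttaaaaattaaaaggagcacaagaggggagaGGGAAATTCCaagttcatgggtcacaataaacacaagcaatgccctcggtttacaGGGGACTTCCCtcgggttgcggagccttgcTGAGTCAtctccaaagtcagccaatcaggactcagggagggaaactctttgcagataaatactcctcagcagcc
An AP-1 match was also found in Ccl9, 53 to 47 bases before the start and next to its NF-kB match at 35 to 26 bases, and in 6.75% of all promoters. No match of the 3 motifs was found in the entries of Ccl3 and Ccl6.

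Set side by side, the 10 genes fell into those carried mainly by myeloid barcodes and those that were not. More than 50% of the UMIs lay in the macrophage/monocyte-like and neutrophil-like clusters for Ccl3, Ccl4, Ccl6, Ccl9 and Cxcl2 in the QSC library, and for these and Ccl2 and Ccl7 in the ASC library. With only the barcodes led by macrophage or monocyte markers in place of that cluster, Cxcl2 alone met this in the QSC library and the same 7 genes did in the ASC library. Macrophage/monocyte-like barcodes took 3.76% of all UMIs and 36.7% of the UMIs of the 10 genes in the QSC library, and 6.28% and 55.2% in the ASC library. Neutrophil-like barcodes took 0.517% and 27.3% of the ASC library. Fibre-poor barcodes held 56.3% of the QSC and 14.9% of the ASC UMIs of the 10 genes, at 1036 and 439 CPM.

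**Figure D2:**
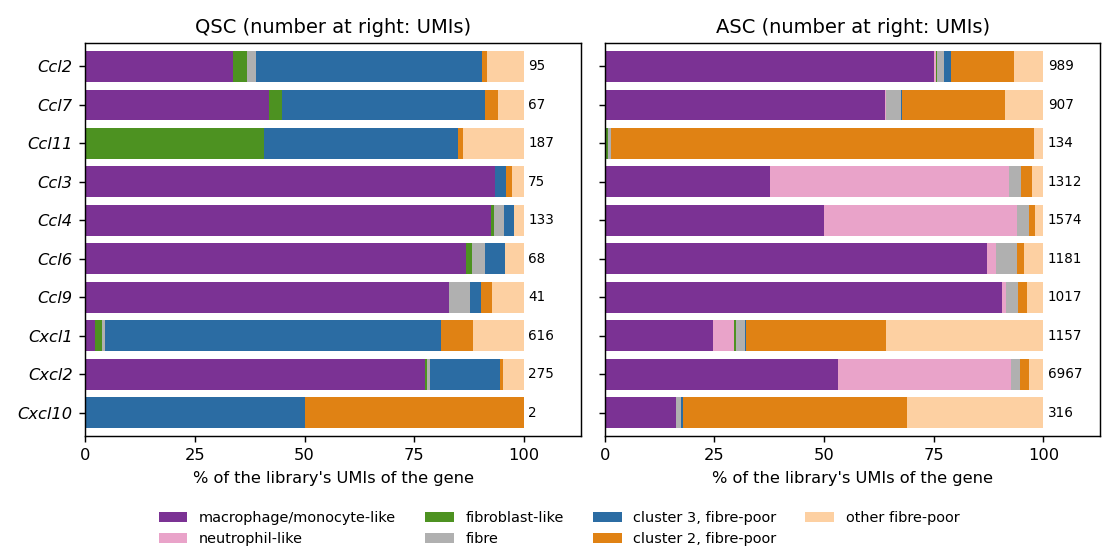
Share of each gene's UMIs, in percent of its UMIs in the library, held by each class of barcodes in the QSC (left) and ASC (right) libraries, with the number of UMIs at the end of each bar. Myeloid classes (purple and pink) hold most of Ccl3, Ccl4, Ccl6, Ccl9 and Cxcl2 in both panels, the quiescent satellite-like cluster 3 (blue) most of QSC Cxcl1, and cluster 2 (orange) 129 of the 134 ASC UMIs of Ccl11.

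In fibre-poor barcodes, away from the named non-muscle clusters, 1 of the 10 genes (Cxcl10) was more than 2-fold higher in the ASC library and 2 (Ccl11 and Cxcl1) lower. The other 7 passed neither limit. Of the 9968 genes with at least 20 UMIs there, 14.8% were higher and 20.6% lower, with the median gene at -0.26. The shares of members higher and lower were thus near those of all genes. Ccl3, Ccl4, Ccl6 and Ccl9 had only 5 or 6 QSC UMIs each in fibre-poor barcodes, with log2 ratios of 0.41 to 1.10 whose intervals all held 0, so a difference in them was not detectable at this depth.

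**Figure D3:**
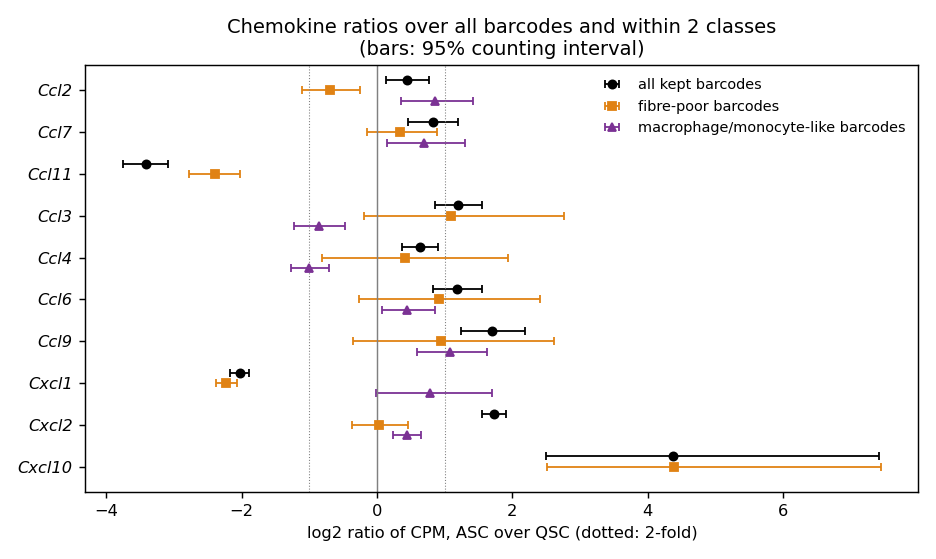
Log2 ratio of CPM, ASC over QSC, for each gene over all kept barcodes (black circles), fibre-poor barcodes (orange squares) and macrophage/monocyte-like barcodes (purple triangles), with exact conditional 95% intervals and dotted lines at 2-fold. Ccl2 lies below 0 in fibre-poor barcodes (-0.69) and above 0 in macrophage/monocyte-like ones (0.86), Ccl11 and Cxcl1 lie below -1 in fibre-poor barcodes, and Ccl11 and Cxcl10, with 0 QSC UMIs in macrophage/monocyte-like barcodes, have no purple point.

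Droplets can also capture free RNA. Its level was not measured, so fibre barcodes serve only as a comparison. Fibre barcodes of the ASC library held 142 Cxcl2, 57 Ccl6, 44 Ccl4, 36 Ccl3 and 26 Ccl9 UMIs, with at most 3 in a barcode. For each UMI of Ccl6 and Ccl9 together, they held 1.71 (1.30 to 2.27) UMIs of Cxcl2, against 1.90 (1.80 to 2.01) in macrophage/monocyte-like barcodes. Fibre-poor barcodes held 2.88 (2.35 to 3.54), with 23 barcodes of cluster 4 and 4 of cluster 2 at 3 or more Cxcl2 UMIs. For Cxcl1 the same ratio was 0.28 (0.17 to 0.44) in fibre barcodes, 0.15 (0.13 to 0.17) in macrophage/monocyte-like ones and 6.01 (4.99 to 7.28) in fibre-poor ones. For Ccl3 it was 0.43 (0.28 to 0.65) in fibre barcodes and 0.25 (0.23 to 0.28) in macrophage/monocyte-like ones. Fibre barcodes thus did not match that class for every gene. For Ccl2, Ccl7 and Cxcl10 it was 1.72, 2.24 and 1.99 in fibre-poor barcodes, against 0.18, 0.39 and 0.05 in fibre barcodes. The ratios of Cxcl1, Ccl2, Ccl7, Cxcl10, Cxcl2 and Ccl11 (1.01 against 0.01) thus differed between fibre-poor and fibre barcodes beyond the counting intervals. Those of Ccl3 (0.51 against 0.43) and Ccl4 (0.38 against 0.53) had overlapping intervals. The part of free RNA in either class was not tested.

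The likeness of patterns was described over the 14 groups of a library and a cluster with at least 20 barcodes, as Pearson's r of log2(CPM + 10) among 3443 genes. The groups of a library share its depth, and no p is given. Ccl3 and Ccl4 were most like Plek (0.99 for both) and each other (0.99), with their highest level in neutrophil-like barcodes. Ccl6 and Ccl9 (0.97 with each other) were most like Trim30a (0.98) and Cybb (0.99). Cxcl2 came closest to Cyp4f18, Igsf6 and Cd14 (0.98 each), and Ccl2 and Ccl7 (0.86 with each other) to Grn (0.93) and Psmb9 (0.95). Ccl11 was most like S1pr3, Medag and Vtn (0.98, 0.98 and 0.97), all 3 highest in the quiescent satellite-like cluster among these groups, which leave out the 17 fibroblast-like barcodes. Cxcl1 was most like Cd47 (0.97) and less like its neighbor Cxcl2 (0.62), and Cxcl10 had no close match (0.86 with Nt5dc2).

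**Figure D4:**
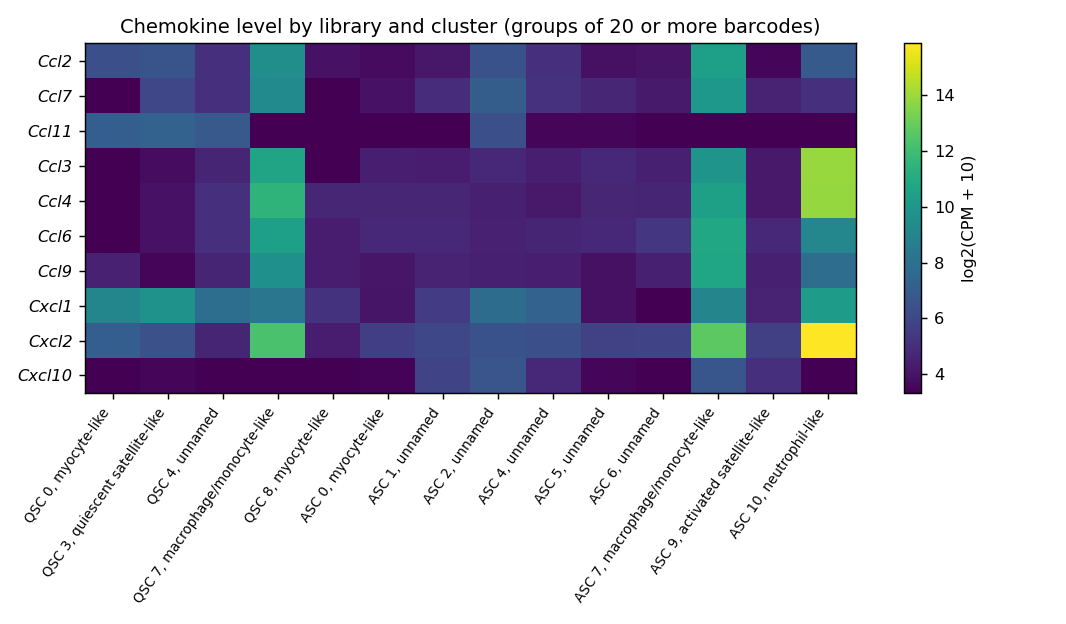
Level of the 10 genes as log2(CPM + 10), by color, in each library-by-cluster group of at least 20 barcodes. The neutrophil-like column holds the highest Cxcl2, Ccl3 and Ccl4 (59705, 15546 and 15046 CPM), Cxcl1 is high both there and in the quiescent satellite-like column, and Ccl11 is at the bottom of the scale in the 3 myeloid columns.

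The other genes of the system were described from lists chosen as the members were. Of 27 other chemokine ligands, 13 had at least 20 UMIs, of which 4 were higher in the ASC library (among them Ccl5 and Cxcl3), 6 lower and 3 neither, with a median log2 ratio of -0.96 against -0.10 over all genes, of which 12.4% were higher and 21.3% lower. Ccl19, a ligand of CCR7, resembled Ccl11 in its library levels, with 160 CPM before and 12.6 CPM after injury. Of its UMIs, 184 of 186 in the QSC library lay in fibre-poor barcodes and 93 of 112 in the ASC library in cluster 2. Unlike Ccl11, it had only 1 UMI (17.5 CPM) in fibroblast-like QSC barcodes. Pf4, a platelet and macrophage chemokine, had 166 and 16.2 CPM, with 168 of 193 QSC UMIs in macrophage/monocyte-like barcodes. Cxcl12, the ligand of CXCR4, had a log2 ratio of -1.59, with 38 of its 94 QSC UMIs in fibroblast-like barcodes. In fibre-poor barcodes it was -0.58 (-1.06 to -0.08), within 2-fold. Ccl5 had a log2 ratio of 5.41 on 1 QSC UMI (2.92 to 10.7), and Cxcl3 had 0 QSC and 129 ASC UMIs, which is at least 2.49 on the log2 scale against a floor of 3 UMIs.

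Few genes of chemokine receptors reached 20 UMIs. Ccr1 and Ccr2, the genes of monocyte receptors for several of the 10 ligands, and Ccrl2 were higher after injury, with log2 ratios of 3.66, 3.83 and 1.36. The scavenging receptor gene Ackr3 was lower (-2.34), with 35 of its 97 QSC UMIs in fibroblast-like barcodes and a ratio of -1.40 (-1.86 to -0.94) in fibre-poor ones. Cxcr4, the gene of the receptor of CXCL12, passed neither limit (0.39, -0.21 to 1.04). Ccr2 lay almost wholly in macrophage/monocyte-like barcodes (315 of 326 ASC UMIs), so that ligand and receptor transcripts were found in the same cluster, and Ccrl2 mostly in neutrophil-like ones (410 of 630). In fibre-poor barcodes, which lie in different clusters in the libraries, Ccrl2 was lower after injury. It had 29.5 and 7.74 CPM there, a log2 ratio of -1.93 (-2.68 to -1.15).

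Among 17 genes of NF-kB factors, their feedback genes and cytokines, 4 were higher, 3 lower and 10 neither (median -0.01), where 12.4% of all genes were higher and 21.3% lower. The cytokine genes Il1b (3.47) and Tnf (2.07) were higher, as was Ptgs2 (0 against 162 UMIs, at least 2.82), while the feedback genes Nfkbiz (-2.51) and Tnfaip3 (-1.20) were lower. The cytokine gene Il6 was lower too (-2.64, on 13 and 16 UMIs). Nfkbia, the feedback gene with the most UMIs (956 and 5021), passed neither limit (-0.54). Of 6 genes of decay factors of chemokine transcripts, Zfp36 (-2.44), Zfp36l1 (-2.86) and Zfp36l2 (-2.31) were lower, none was higher, and the median was -1.51. Of 18 early-response genes 15 were lower, among them Fos (-3.32), Fosb (-4.42) and Jun (-2.96), and 1 was higher, with a median of -2.29. Of 12 interferon-induced genes 7 were higher, such as Ifit1 (3.65), Isg15 (2.94) and Irf7 (3.69), and 2 lower, among them Irf1 (-2.79), with a median of 2.29. In fibre-poor barcodes 17 of 18 early-response genes were lower and 6 of 11 interferon-induced genes higher, where 20.6% and 14.8% of all genes were.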

How the data were processed

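The deposited count matrices hold whole UMI counts per gene and barcode, which the authors made with Cell Ranger (6.0.2 in the headers, 7.1.0 with mm10 in the submitters' processing notes). The annotation is not given in the sources used here, and 99.6% of feature identifiers are in GENCODE M21. Barcodes with at least 500 genes and at most 10% mitochondrial UMIs were kept (766 QSC and 1650 ASC barcodes were deposited), and no doublet caller was run. UMIs were summed per library or class. CPM carry exact Poisson, ratios exact conditional binomial and shares Clopper-Pearson 95% intervals (Python 3.11.15, scipy 1.17.1). A gene counted as higher or lower past 2-fold with an interval off equality and at least 20 UMIs, and a count of 0 was set to 3 UMIs for bounds. The ratio code was tested on simulated data. Clusters came from Seurat 5.3.0 (R 4.3.3) with the settings of the study (10 components, resolution 0.6), with 15 chemokine ligands left out of the 1084 variable genes. Clusters took the name of the type with most listed markers among the 10 leading genes, given at least 3 detected markers. Members, gene lists and markers were chosen with earlier results of these data known. Of the lists, up to 5 genes past the limit with the most UMIs were named, besides Cxcr4, Il6 and Nfkbia, and for likeness the 3 closest genes. Counts over the receptor list, and an item of it, are not reported here. Alternatives used edgeR 4.0.16 (TMM).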

Additional observations from a re-analysis of the deposited data

Results flagged for a closer look

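Ccl2 drew attention because its ratio had opposite signs in 2 classes of barcodes that both libraries share. The log2 ratio of ASC over QSC was 0.86 in macrophage/monocyte-like barcodes and -0.69 in fibre-poor barcodes, and this difference was not tested, since each library is a single sample. With only the barcodes led by macrophage or monocyte markers the former was 0.10 (-0.46 to 0.72), and in fibre barcodes, also shared, the ratio was -0.89 on 2 QSC UMIs. Chemokine UMIs were also seen in the barcodes that the filter left out. The 250 left-out QSC barcodes held 54 UMIs of the 10 genes among 183929 UMIs (294 CPM), and the 182 left-out ASC barcodes held 179 among 163992 (1092 CPM), of which 64 were Cxcl2 and 34 Ccl6.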

How the results depend on the processing

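No paired analysis was possible because each group has 1 library and no test was run. Ccl11 and Cxcl1 were the genes lower in the ASC library under 14 of the 15 other settings. The exception was the 1% mitochondrial limit of the study, with 0 genes lower. It left 86 QSC barcodes, of which 85 were fibre barcodes and none lay in the quiescent satellite-like cluster, and there Cxcl1 had a log2 ratio of 0.63 on 4 QSC UMIs. The number of genes higher, 5, was 3 past 3-fold, 3 without the clusters named as non-muscle types, 2 without the macrophage/monocyte-like and neutrophil-like clusters (Ccl3 and Cxcl10; added after seeing the data) and 8 without the 5 barcodes with most UMIs of each gene, and from 4 to 6 otherwise. With at least 1000 genes per barcode the log2 ratio was -0.61 for Ccl3 and -0.91 for Ccl4, and 0.50 for Cxcl2, which was no longer past 2-fold, while Ccl7 (1.11) was. Of Ccl3, 71 of 75 QSC and 623 of 1312 ASC UMIs were kept. Restricting the macrophage/monocyte-like cluster to barcodes led by those markers, also added later, moved the number of genes mostly in myeloid clusters in the QSC library from 5 to 1. Among the barcodes this left out were the 8 QSC barcodes led by dendritic markers, in which C1qa stood at 4688 CPM. Of the log2 ratios under other settings, 70 stayed within the counting interval of the reported value and the others did not, and 5 changed sign: Ccl3, Ccl4 and Cxcl1 as given, and Ccl2 to -0.96 without the non-muscle clusters and to -0.95 without the myeloid ones. TMM or median-ratio scaling put Ccl7 past the 2-fold limit. Depth limits the QSC values of Cxcl10 (2 UMIs), those of Ccl3, Ccl4, Ccl6 and Ccl9 in fibre-poor barcodes (5 or 6 UMIs each) and the QSC myeloid values, which rest on 25 barcodes.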
